A study of Mus musculus with 19 samples.

Results

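The cytosolic heat shock proteins described here are 10 listed genes: the Hsp90 pair Hsp90aa1 and Hsp90ab1, the Hsp70 genes Hspa8, Hspa1a and Hspa1b, the Hsp110 genes Hsph1 and Hspa4, the J-domain genes Dnaja1 and Dnajb1, and the small heat shock gene Hspb1. They were taken by symbol, ignoring letter case, from the 3 deposited tables, whatever their values, and every library was used. Of the 6853 genes in at least 1 table, 9 were listed heat shock genes: 8 in astrocytes, 7 in microglia and 9 in monocytes. Hspb1 was not analysed here, nor were Hspa1b in astrocytes and microglia and Hsph1 in microglia, and 7 members were measured in all 3 cell types.

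Flow cytometry had sorted the astrocytes, the microglia and the monocytes from the nervous system of wild type female C57Bl/6 mice at postnatal day 85. All mice, controls included, had received a lentivirus in the brain and had experimental autoimmune encephalomyelitis (EAE), a model of multiple sclerosis raised by immunizing with MOG35-55, a piece of a myelin protein (25 µg in CFA, complete Freund's adjuvant). The lentivirus, pLenti-Gfap-GFP, carried the astrocyte promoter Gfap, the marker GFP and a short hairpin RNA that was either scrambled (shScrmbl) or aimed at Xbp1 (shXbp1), which encodes a factor that switches on genes when unfolded protein gathers in the endoplasmic reticulum (ER). There were 4 shScrmbl and 4 shXbp1 libraries of astrocytes, 4 and 3 of microglia, and 2 and 2 of monocytes, 19 in all. The virus is meant for astrocytes, so the comparison in microglia and monocytes is of cells beside them, and the labels do not say which share of the sorted astrocytes carried it.

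Cytosolic chaperones hold newly made or damaged proteins until they fold. Hsp70 proteins bind short exposed stretches with the help of J-domain proteins, Hsp110 proteins release the nucleotide from Hsp70, and Hsp90 takes over partly folded clients such as kinases and steroid receptors. Cells make Hspa8 and Hsp90ab1 at all times, whereas the factor HSF1 raises Hspa1a, Hspa1b, Hsp90aa1, Hsph1, Dnajb1 and Hspb1 under heat and other stress of the cytosol, and tissue dissociation is known to raise several of them as well. The ER has chaperones of its own, and those answer to another stress pathway, the unfolded protein response.

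The deposited values, called signal here, are normalized counts per gene, scaled so that a table's column totals have a geometric mean of 1000000. Transcripts were counted at their 3′ ends, so signal was not divided by gene length. Libraries held 32842 to 302003 counts in astrocytes, 10039 to 122002 in microglia and 15654 to 112676 in monocytes, and 1 count was worth a signal of 4.22 to 27.6, 9.33 to 76.0 and 9.11 to 50.6. Intervals and limits made from counts cover counting error only. Xbp1 itself had a signal of 20.1, 71.7, 79.9 and 27.6 in shScrmbl and 34.1, 52.9, 31.2 and 79.7 in shXbp1 astrocytes, from 22 and 28 counts, so the groups overlapped and at this depth the knockdown was not detectable in the astrocyte libraries. Its group means were 51.3 and 48.3 in microglia and 154 and 214 in monocytes. Of the astrocyte markers 15 of 16 were measured, Aldoc, Slc1a2, Slc1a3 and Aqp4 among them, but Gfap was not analysed here. They took 0.225% to 0.440% of the counts in shScrmbl and 0.417% to 0.445% in shXbp1 astrocytes. The 9 measured markers of ependyma and choroid plexus took 22.5% to 30.5% and 16.7% to 25.7%, of which Ttr alone made up 14.2% to 26.7%. In bulk libraries, fewer cells of a type and less RNA per cell cannot be told apart.

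In all 3 cell types 3 genes made up most of the heat shock signal. Hsp90aa1, Hsp90ab1 and Hspa8 together held 84.4% to 93.2% of the members' counts in the 19 libraries. In astrocytes Hsp90aa1 had the highest signal of the members, 5075 ± 1867 (SD, n = 8), and ranked 7 among 6376 genes by mean signal. Hsp90ab1 followed with 3299.9 ± 927 at rank 9, and Hspa8 with 2571 ± 357 at rank 21. Dnaja1 lay well under these with 675 ± 116, then Hsph1 with 214 ± 108, Hspa4 with 114 ± 48.8, Dnajb1 with 65.5 ± 28.3 and Hspa1a with 31.1 ± 45.6. The ranges of mean ± SD met for all neighbours in that order, except that Dnaja1 was apart from Hspa8 above it and from Hsph1 below it. In every one of the 8 libraries, though, Hsp90aa1 was above Hsp90ab1.

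The order was different in the myeloid cells. In microglia Hspa8 led with 3048 ± 562 (SD, n = 7), and Hsp90aa1 with 1816 ± 536 and Hsp90ab1 with 1744 ± 291 could not be separated by their spread. Dnaja1 had 475 ± 107, Hspa1a 102 ± 114, Hspa4 57.9 ± 38.3 and Dnajb1 55.6 ± 46.4. In monocytes Hspa8 had 4016 ± 933 (SD, n = 4), Hsp90ab1 2542 ± 1159, Hsp90aa1 1685 ± 813 and Dnaja1 724 ± 348. The rest of the monocyte members had means between 30.8 for Hspa4 and 115 for Hspa1a, with Hsph1 at 91.8, Dnajb1 at 91.1 and Hspa1b at 33.8. The tables were normalized separately, so levels across cell types are a description and were not tested.

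**Figure D1:**
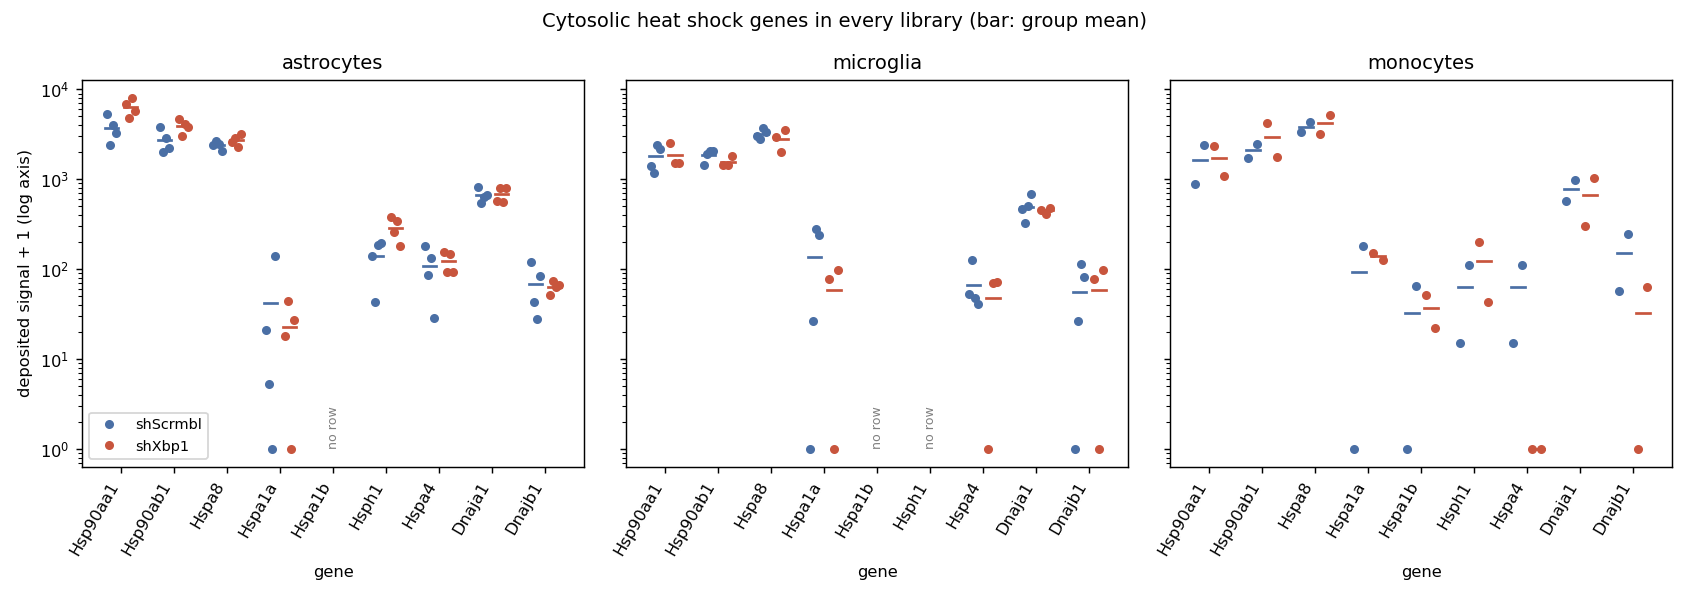
Deposited signal plus 1 on a log axis for each measured heat shock gene, in astrocytes, microglia and monocytes; points are libraries (blue shScrmbl, red shXbp1) and bars are group means. In astrocytes the 4 shXbp1 points of Hsp90aa1 lie between 4856 and 8129 and the 4 shScrmbl points between 2408 and 5316. Genes marked "no row" are those not analysed here in that cell type.

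The share of the heat-inducible Hsp90 gene in the Hsp90 pair does not depend on the scaling of the tables. In astrocytes Hsp90aa1 made up 54.3% to 66.4% of the Hsp90aa1 and Hsp90ab1 counts, and its exact Clopper-Pearson 95% interval lay above 50% in all 8 libraries. The lowest of these intervals was 51.2% to 57.3%, in shScrmbl replicate 2. In microglia the share was 49.1%, 38.1%, 54.2% and 50.9% in shScrmbl and 63.5%, 51.2% and 45.7% in shXbp1. The microglial values lay on either side of 50% in both groups. In monocytes it was 33.9% and 49.0% in shScrmbl and 36.2% and 38.2% in shXbp1, below 50% in all 4 libraries, though the interval of shScrmbl replicate 2 (44.7% to 53.3%) reached over it.

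Within astrocytes the shares of the viruses overlapped. In shScrmbl astrocytes the share was 58.5%, 54.3%, 58.7% and 59.8%, a mean of 57.8% ± 2.43 (SD, n = 4). The shXbp1 astrocytes had 59.6%, 61.7%, 66.4% and 60.2%, a mean of 62.0% ± 3.04 (SD, n = 4). The lowest shXbp1 library, replicate 1, was under the highest shScrmbl library, replicate 4.

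**Figure D2:**
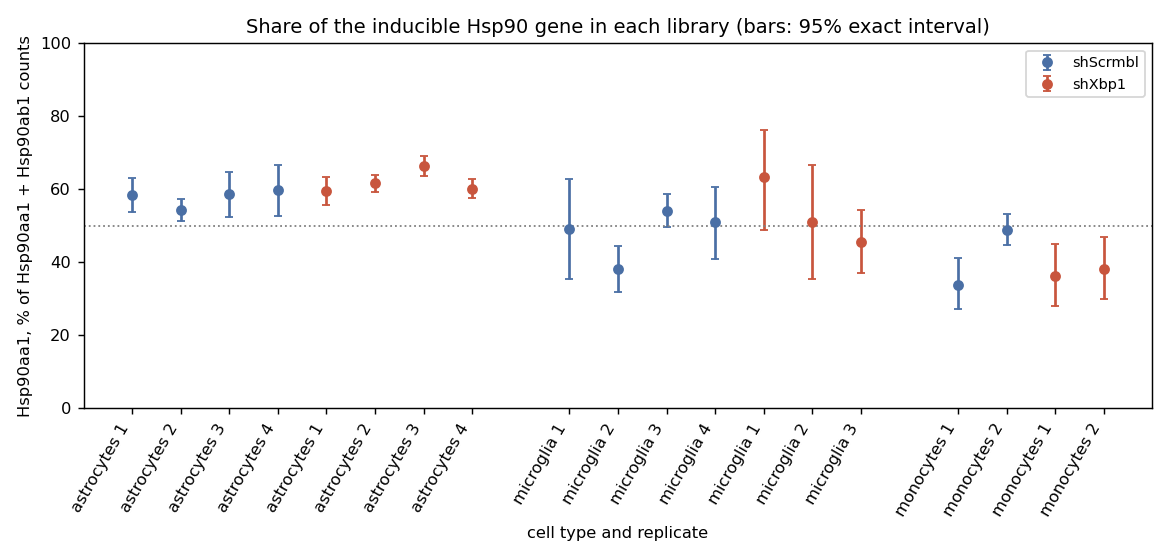
Share of Hsp90aa1 in the Hsp90aa1 plus Hsp90ab1 counts of each of the 19 libraries, in percent, with exact 95% counting intervals (blue shScrmbl, red shXbp1; the dotted line marks 50%). The 8 astrocyte libraries lie between 54.3% and 66.4%, and the 4 monocyte libraries between 33.9% and 49.0%.

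The first question of the design is whether the astrocyte hairpin against Xbp1 changed these genes in the astrocytes themselves. Hsp90aa1, Hsp90ab1 and Hsph1 had higher means in shXbp1 than in shScrmbl astrocytes, by 1.70, 1.43 and 2.05 times, and the means of the other 5 measured members differed by less than the larger SD. None of the 8 passed limma's test with Benjamini-Hochberg adjustment over 6366 genes, which 0% of all genes passed. None passed edgeR's, which 0.0157% of genes passed, or DESeq2's, which 0% did.

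Hsp90aa1 (chromosome 12, 110690605 to 110702728 of GRCm38, minus strand), the inducible cytosolic Hsp90, had a signal of 5316, 2408, 4047 and 3282 in shScrmbl replicates 1 to 4 and 6856, 4856, 8129 and 5710.2 in shXbp1 replicates 1 to 4. The shXbp1 libraries were high, 3 of 4 above the highest shScrmbl library, but shXbp1 replicate 2 was under shScrmbl replicate 1, so the groups overlapped. The means were 3763 ± 1233 and 6388 ± 1421 (SD, n = 4 each). limma on log2(signal + 1) gave a difference of 0.80 ± 0.23 (SE; 95% interval 0.33 to 1.27) with an adjusted p of 0.824, and edgeR 0.77 with an adjusted p of 0.644.

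Hsp90ab1 (chromosome 17, 45567775 to 45573271, minus strand), the constitutive Hsp90, had 3771, 2028, 2849 and 2206 in shScrmbl and 4639, 3012, 4122 and 3771 in shXbp1 astrocytes. Its pattern over the controls was the same: shScrmbl replicate 2 was lowest, shScrmbl replicate 1 was the highest control, and the groups overlapped. The shXbp1 libraries were ordered otherwise, with replicate 1 highest in place of replicate 3, and replicate 4 was level with the highest control. The limma difference was 0.54 ± 0.22 (SE; 95% interval 0.084 to 1.004; adjusted p = 0.824) and the edgeR difference 0.52 (adjusted p = 0.762). Over the 8 libraries the log2 signals of the Hsp90 genes correlated with Pearson's r of 0.95, a description of libraries that share depth and scaling.

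Hsph1 (chromosome 5, 149614287 to 149636376, minus strand) encodes Hsp110, a nucleotide exchange factor of Hsp70. Its signal was 140.4, 42.2, 186 and 193 in shScrmbl and 375, 255, 343 and 179 in shXbp1 astrocytes, from 31 and 135 counts (141 ± 69.6 and 288 ± 88.7, SD, n = 4 each). The shXbp1 libraries were above all controls except for replicate 4, which lay among them. limma gave a difference of 1.19 ± 0.46 (SE; 95% interval 0.23 to 2.15; adjusted p = 0.824) and edgeR 1.25 (adjusted p = 0.644).

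Each of the 3 genes had its lowest signal in shScrmbl replicate 2, the deepest astrocyte library. Without it the limma differences were 0.60 for Hsp90aa1, 0.42 for Hsp90ab1 and 0.69 for Hsph1, and the edgeR differences 0.57, 0.36 and 0.67. The Hsph1 difference thus became smaller by more than 1.5 times. The same library had the largest share of the 16 microglia markers, 0.445% of counts against 0.169% to 0.252% in the other astrocyte libraries, and of the 9 measured monocyte markers, 0.398% against 0.0536% to 0.211%. It also had the lowest share of astrocyte markers, 0.225%, and the highest of the 14 measured immediate early genes, 0.212% against 0.0913% to 0.150%. The part of these values in the heat shock differences was not tested. With quantile normalization, where the median difference of all genes was 0.03 in place of 0.42, the differences were 0.78 for Hsp90aa1, 0.72 for Hsp90ab1 and 1.21 for Hsph1, none past the threshold.

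The constitutive Hsp70 and its J-domain partner overlapped between viruses. Hspa8 (chromosome 9, 40800984 to 40810087, plus strand), the Hsc70 that serves everyday folding, had 2387, 2686, 2476 and 2041 in shScrmbl and 2609, 2902, 2289.9 and 3174 in shXbp1 astrocytes. The highest library was of shXbp1 and the lowest of shScrmbl, and the limma difference of 0.19 had a 95% interval of -0.23 to 0.61, which is 0.853 to 1.53 times the control level. Dnaja1, a J-domain partner of Hsc70, had 822, 539.8, 639 and 662 against 579.8, 808, 562 and 790.1. Its limma difference was 0.04, with an interval of -0.54 to 0.61.

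The low members could not be resolved at this depth. Dnajb1, the J-domain protein most tied to stress, had 120.4, 42.2, 26.6 and 82.7 in shScrmbl and 51.2, 72.2, 62.5 and 66.4 in shXbp1 astrocytes, from 20 and 34 counts, with a limma difference of 0.11. Hspa4, an Hsp110 relative of Hsph1, had 181, 84.3, 133 and 27.6 against 153, 91.4, 146 and 93.0, from 35 and 56 counts, with a limma difference of 0.43 and an edgeR difference of 0.15. The 4 shXbp1 values of each gene lay within the range of the controls.

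All 8 measured members had a fitted difference above 0 in astrocytes by limma and by edgeR, but so did much of the table. By limma 68.2% of all genes did, and the median of the members was 0.31 against 0.42 for all genes. By edgeR 53.5% of all genes did, and the median was 0.17 against 0.05. Without shScrmbl replicate 2, 5 of 8 members were above 0 by limma (71.1% of all genes) and 4 of 8 by edgeR (62.0%), with an edgeR median of 0.07 against 0.19 for all genes. Before adjustment 3 members had p under 0.05 and were higher by limma, where 4.13% of genes did, and 2 by edgeR, where 3.69% did. By DESeq2 the differences of Hspa1a, Dnaja1 and Dnajb1 were below 0 (-0.66, -0.02 and -0.08). For no member were all shXbp1 libraries above all shScrmbl libraries, which was the case for 2.37% of genes.

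As a share of all counts, a value free of the table's scaling factors, the members took 1.26%, 0.615%, 1.10% and 0.953% in shScrmbl and 1.68%, 1.13%, 1.76% and 1.31% in shXbp1 astrocytes. Here shXbp1 replicate 2 was again the only shXbp1 library under a control. The Hsp90 pair alone took 0.646% ± 0.232 and 1.07% ± 0.302 (SD, n = 4 each). For the pair shXbp1 replicates 2 (0.739%) and 4 (0.897%) were both under shScrmbl replicate 1 (0.899%).

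**Figure D3:**
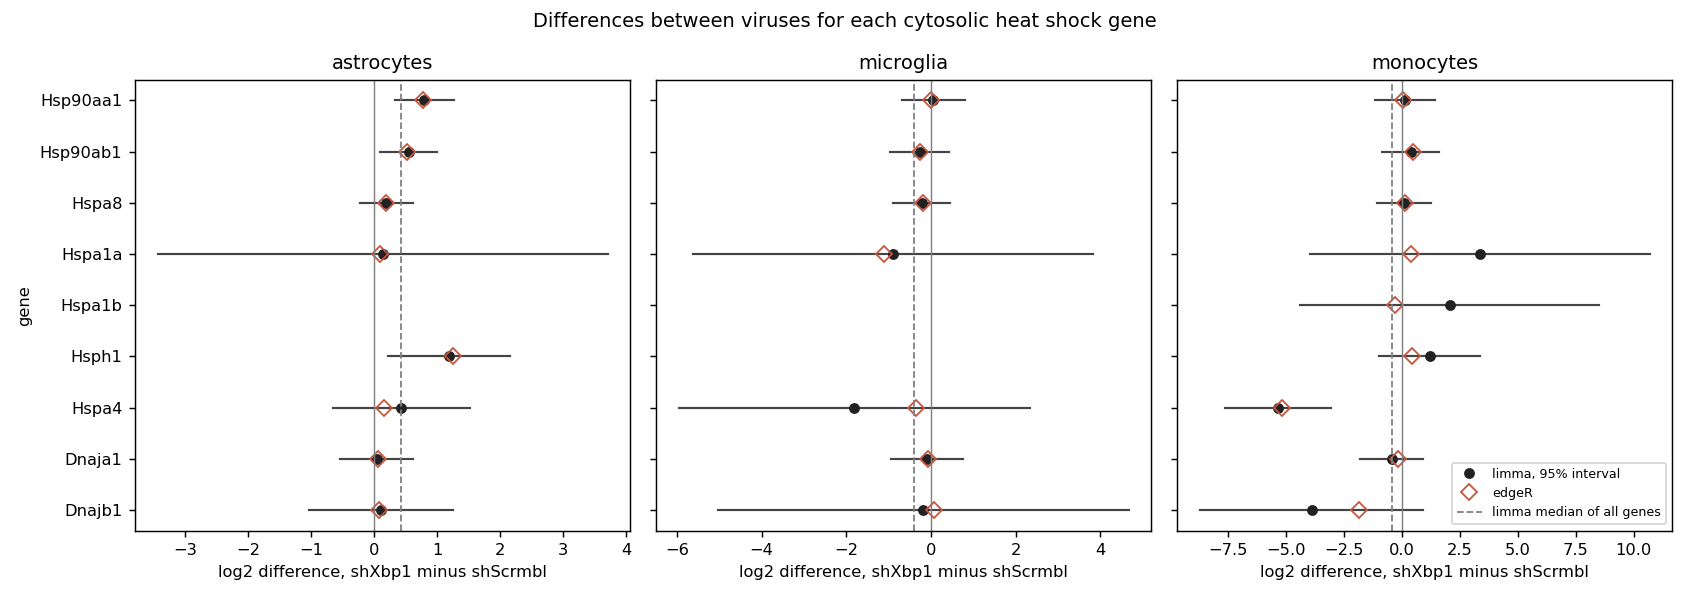
Difference in log2 signal between shXbp1 and shScrmbl libraries for each measured member and cell type, by limma (black, with 95% interval) and by edgeR (red diamonds); the dashed line is the limma median of all genes and each panel has its own scale. In astrocytes the intervals of Hsp90aa1, Hsp90ab1 and Hsph1 lie above 0 before adjustment and Hspa1a has an interval from -3.44 to 3.71.

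The heat-inducible Hsp70 genes were rare throughout. Hspa1a and Hspa1b are intronless neighbours on chromosome 17 of GRCm38 (34969190 to 34972156 and 34956436 to 34959238, minus strand). Their coding sequences were 99.4% identical, but the last 300 bases of their transcripts only 49.8%. How the authors' counting divided reads between the genes is not given in the sources used here. Their promoters, shown because HSF1 acts through them, are near copies too. The 250 bases before each start, from RefSeq on GRCm38.p6 (minus strand, 5′ to 3′; Hspa1a chr17:34972157-34972406, Hspa1b chr17:34959239-34959488), are printed with the inverted repeat of the heat shock element in capitals.
Hspa1a: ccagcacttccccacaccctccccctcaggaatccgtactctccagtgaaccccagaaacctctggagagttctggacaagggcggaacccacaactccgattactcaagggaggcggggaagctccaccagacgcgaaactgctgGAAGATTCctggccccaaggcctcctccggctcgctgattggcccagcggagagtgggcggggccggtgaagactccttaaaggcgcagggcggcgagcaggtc
Hspa1b: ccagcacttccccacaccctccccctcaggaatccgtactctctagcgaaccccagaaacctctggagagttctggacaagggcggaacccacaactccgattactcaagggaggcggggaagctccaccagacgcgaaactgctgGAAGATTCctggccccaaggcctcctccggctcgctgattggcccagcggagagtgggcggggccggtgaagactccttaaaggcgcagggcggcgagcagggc
They are 98.8% identical. Counted from 1 at the 5′ end, with the Hspa1a base first, the substitutions are C44T, T47C and T249G, and the repeat GAAGATTC stands at bases 104 to 97 before the start in both.

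The heat shock element is built from inverted repeats of the unit GAA, searched here as GAANNTTC and TTCNNGAA. Each reads the same on both strands, so a search of 1 strand covers both, and matches of the pair can overlap. Among 32851 windows of 250 bases before RefSeq starts, 6.69% held GAANNTTC and 7.17% TTCNNGAA. Promoters were at hand for 7 of the 10 members, in 11 windows. Besides Hspa1a and Hspa1b, a repeat was found before Hsph1 (TTCTCGAA), Hspb1 (GAAGTTTC and GAACCTTC) and 1 of 3 starts of Dnaja1 (GAAAATTC), and these letters were not in the windows of Hspa4 and Dnajb1. The stretches of the members with measured values are the following, with the repeat in capitals, for Hsph1 at chr5:149636351-149636380 (minus strand, across the gene's annotated start) and for Dnaja1 at chr4:40722333-40722362 (plus strand, inside the annotated gene).
Hsph1: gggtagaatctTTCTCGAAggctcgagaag
Dnaja1: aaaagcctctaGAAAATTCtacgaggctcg
Both hold a repeat, and in astrocytes the limma difference was 1.19 for Hsph1 and 0.04 for Dnaja1. A match is a description of letters, not a site in use.

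In astrocytes Hspa1a had a signal of 20.1, 4.22, 0 and 138 in shScrmbl and 17.1, 43.3, 0 and 26.6 in shXbp1, from 7 and 14 counts. Most of the control signal came from shScrmbl replicate 4, with 5 counts. The limma difference was 0.13 with a 95% interval of -3.44 to 3.71, so the depth could not show a difference. The share of inducible Hsp70 was counted as Hspa1a out of Hspa1a plus Hspa8 in astrocytes and microglia, where Hspa1b was not analysed. In astrocytes it was 0.833%, 0.157%, 0% and 6.33% in shScrmbl and 0.649%, 1.47%, 0% and 0.830% in shXbp1. The 0 in shScrmbl replicate 3 allows up to 3.89% and that in shXbp1 replicate 3 up to 1.66% (upper bounds of the exact Clopper-Pearson 95% interval).

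In microglia the share varied between libraries of the same virus more than between viruses. It was 0%, 0.897%, 7.08% and 6.59% in shScrmbl and 2.50%, 0% and 2.67% in shXbp1. The exact intervals of shScrmbl replicate 2 (0.109% to 3.20%) and replicate 3 (4.82% to 9.95%) did not meet, so these 2 control libraries differed beyond counting error. In monocytes, where Hspa1b was measured and counted with Hspa1a, the share was 0% and 5.37% in shScrmbl and 5.97% and 2.75% in shXbp1. The 0 of shScrmbl replicate 1 came from 240 Hsp70 counts and allows up to 1.53%, below the interval of shScrmbl replicate 2 (3.57% to 7.71%).

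In microglia, the resident myeloid cells of the brain, no member passed a test between the astrocyte viruses. limma called 0 of 3066 genes (0%), DESeq2 none, and edgeR 0.391% of genes, none of them a member. Hsp90aa1 had 1401, 1186, 2427 and 2160.0 in shScrmbl and 2508, 1518 and 1508 in shXbp1 microglia, and the groups overlapped. Its limma difference was 0.06 (95% interval -0.68 to 0.80), which bounds it between 0.624 and 1.74 times the control.

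Hsp90ab1 had 1453, 1931, 2054 and 2080.0 in shScrmbl and 1444, 1449 and 1796 in shXbp1 microglia. The first 2 of the shXbp1 libraries lay just under the lowest control and the third within the control range, and the limma difference was -0.26 (95% interval -0.96 to 0.44). Hspa8 had 3011, 2789, 3678 and 3400.0 against 2964, 2001 and 3495, a limma difference of -0.22 (95% interval -0.89 to 0.45). Dnaja1 had 467, 328, 504 and 680.0 against 456, 414 and 479, a limma difference of -0.09. For these genes too the groups overlapped.

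Hspa1a had a microglial signal of 0, 25.2, 280.0 and 240.0 in shScrmbl and 76.0, 0 and 95.8 in shXbp1. Dnajb1, its J-domain partner under stress, had 0, 25.2, 112 and 80.0 against 76.0, 0 and 95.8. The genes were at 0 in the same 2 libraries and high in the same ones. Those at 0, shScrmbl replicate 1 and shXbp1 replicate 2, were shallow (17892 and 13321 counts), and 1 count there was worth a signal of 51.9 and 69.0. Over 7 libraries the log2 signals of the genes correlated with r = 0.98. That description includes the shared 0 values and rests on few counts (43 of Hspa1a and 21 of Dnajb1). The limma difference was -0.90 for Hspa1a and -0.18 for Dnajb1, with intervals that spanned more than 9 log2 units. Hspa4 had 51.9, 126, 46.7 and 40.0 against 0, 69.0 and 71.8, from 17 and 4 counts.

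By limma 1 of 7 members was higher and 6 lower in shXbp1 microglia, with a median of -0.22 against -0.39 for all genes, of which 34.5% were higher. By edgeR 2 were higher and 5 lower, with a median of -0.18 against -0.09 and 44.6% of genes higher. No member's groups were apart, which was the case for 2.32% of genes upward and 4.92% downward. The 16 monocyte markers took 0.671% to 2.37% of counts in shScrmbl and 0.319% to 1.06% in shXbp1 microglia, and the microglia markers 1.22% to 1.91% and 1.39% to 2.07%. The 4 measured markers of ependyma and choroid plexus took 1.75% to 6.92% and 3.65% to 5.28%. The part of these in the values above was not tested.

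In monocytes, blood-derived cells that enter the nervous system in EAE, 1 member, Hspa4, passed limma's test and no member passed edgeR's, which 0.0265% of genes passed, or DESeq2's. Hspa4 had a signal of 14.0 and 109 in shScrmbl and 0 and 0 in shXbp1 monocytes, from 13 and 0 counts (limma adjusted p = 0.00516, edgeR adjusted p = 0.923). With the counts of each group pooled and a floor of 3 counts, it was at least 1.67-fold lower. That bound rests on shScrmbl replicate 2, which held 12 of the 13 control counts, against 1 in replicate 1. limma called 101 of 3775 genes, which is 2.68%, and of the 101 genes at 0 in both shXbp1 libraries it called 99. The shXbp1 libraries held 72279 counts in all and the shScrmbl libraries 187016. The call was lost with a pseudocount of 50 in place of 1 (adjusted p = 0.891), with quantile normalization (0.931), without shScrmbl replicate 1 (0.995) and without shScrmbl replicate 2 (0.992).

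The abundant members had no common direction in monocytes. Hsp90aa1 had 880.4 and 2395 in shScrmbl and 2376 and 1089 in shXbp1, and Hsp90ab1 had 1719 and 2495 against 4196 and 1759. In both genes the groups overlapped, and the shXbp1 libraries differed from each other by more than the group means did, with limma differences of 0.15 (95% interval -1.14 to 1.43) and 0.39 (-0.84 to 1.62). Hspa8 had 3354 and 4334 against 3185 and 5192, with a limma difference of 0.09 (-1.09 to 1.27). Dnaja1 had 573 and 993 against 303 and 1026, with a limma difference of -0.43 (-1.80 to 0.93).

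Dnajb1 had 55.9 and 246 in shScrmbl and 0 and 62.8 in shXbp1 monocytes, from 31 and 3 counts, a pooled count ratio of 0.250 with a counting interval of 0.0490 to 0.803. The groups overlapped, and the limma difference of -3.89 (95% interval -8.71 to 0.93) did not pass. Hsph1 had 14.0 and 109 against 202 and 41.9. Hspa1a had 0 and 182 against 152 and 126, and Hspa1b, measured only here, 0 and 63.7 against 50.6 and 20.9, from 7 and 2 counts. Both inducible genes were at 0 in shScrmbl replicate 1 and highest in shScrmbl replicate 2, so the control range held the shXbp1 values. The 16 monocyte markers took 2.40% to 2.48% of counts in shScrmbl and 0.907% to 1.86% in shXbp1 monocytes, and 6 measured markers of T, NK and B cells 0.422% to 0.620% and 0.698% to 0.894%. The part of these in the values above was not tested.

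By limma 6 of 9 members were higher in shXbp1 monocytes and 3 lower, where 34.2% of genes were higher, and by edgeR 5 and 4, where 43% were. The limma median was 0.15, also with Hspa4 at its bound, against -0.42 for all genes, and the edgeR median 0.05 against -0.17. Groups were apart for Hspa4 alone, which was the case for 25% of genes downward and 9.85% upward. With 2 libraries a group, leaving out shXbp1 replicate 2 put Hsp90ab1 (1.02, adjusted p = 0.0131), Dnaja1 (-1.31, adjusted p = 0.0421) and Dnajb1 (adjusted p = 0.000251) past limma's threshold. Dnajb1 had 0 counts in the shXbp1 library that remained, so its fitted difference is set by the pseudocount and is not given. That fit has a single shXbp1 library, of 15654 counts, whose spread is assumed to be that of the controls, and it called 1163 genes.

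The genes that work with the members were taken from listed groups and, in astrocytes, none of them passed limma's or edgeR's test. Of the Hsp90 co-chaperones 14 of 16 were measured, 12 with a limma difference above 0 and 2 below, with a median of 0.22 against 0.42 for all genes (edgeR 11 and 3, 0.29 against 0.05). Stip1, which bridges Hsp70 and Hsp90, had 128 ± 82.9 in shScrmbl and 232 ± 79.1 in shXbp1 astrocytes, and Ptges3, the p23 co-chaperone, 128 ± 65.4 and 232 ± 24.6 (SD, n = 4 each). Their groups overlapped. Sugt1 (186 ± 65.0 and 211 ± 59.4) and Nudc (177 ± 85.2 and 191 ± 48.4) were closer.

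Of the Hsp70 co-chaperones 19 of 21 were measured, 16 above 0 and 3 below, with a limma median of 0.84 (edgeR 15 and 4, 0.70). Dnajc8, a nuclear J-domain protein, had 202 ± 65.7 in shScrmbl and 344 ± 20.4 in shXbp1 astrocytes, and its groups did not overlap. Of all genes 2.37% were apart in this direction. Dnajc5, the cysteine string protein, had 71.7 ± 38.9 and 127 ± 48.9, St13, which binds Hsp70, 105 ± 29.3 and 119 ± 59.9, and Dnajc7 112 ± 54.2 and 96.3 ± 39.7. As a share of counts the Hsp70 co-chaperones took 0.0765% to 0.119% in shScrmbl and 0.133% to 0.178% in shXbp1 astrocytes, ranges that did not meet. The same held for the mitochondrial list described below. Without shScrmbl replicate 2, 12 of 19 were above 0 by edgeR and the median was 0.20 against 0.19 for all genes, and by limma 14 of 19 with a median of 0.89 against 0.56.

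Of the small heat shock genes 3 of 8 were measured, 1 above 0 and 2 below. Cryab, the alphaB-crystallin of glia, was by far the strongest, with 675 ± 186 in shScrmbl and 632 ± 198 in shXbp1 astrocytes. Hspb8 had 105 ± 95.1 and 133 ± 21.9, and Hspb6 34.4 ± 19.5 and 33.6 ± 16.3. Of the heat shock transcription factors and regulators only Hsbp1, which binds HSF1 trimers, was measured, with 519 ± 95.7 and 371 ± 145 and a limma difference of -0.55.

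The cytosolic chaperonin and prefoldin list, which folds actin and tubulin, had 13 of 14 genes measured, 8 above 0 and 5 below (limma median 0.28, edgeR 0.14). Its 4 strongest genes overlapped between viruses. Pfdn5 had 980.4 ± 127 and 933 ± 159, Cct7 333 ± 76.5 and 312 ± 117, Cct5 256 ± 40.1 and 243 ± 33.7, and Tcp1 264 ± 48.4 and 225 ± 74.1. Of the mitochondrial list 5 of 7 were measured, 3 above 0 and 2 below (limma median 0.94, edgeR 0.30). They took 0.0523% to 0.0761% of counts in shScrmbl and 0.0808% to 0.0854% in shXbp1 astrocytes, ranges that did not meet. Without shScrmbl replicate 2 the medians were 1.07 by limma and 0.16 by edgeR, against 0.56 and 0.19 for all genes. Hspd1, the mitochondrial Hsp60, had 178 ± 66.8 and 320.3 ± 45.1 with groups that did not overlap, as for 2.37% of all genes. Its partner Hspe1 had 317 ± 108 and 289 ± 78.7.

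The ER counterparts had 7 of 10 genes measured, 5 above 0 and 2 below by limma (median 0.79) and 6 and 1 by edgeR (0.56). Hspa5, the ER Hsp70 known as BiP, had 759.9 ± 260.2 in shScrmbl and 1473 ± 403 in shXbp1 astrocytes, and Hsp90b1, the ER Hsp90, 963 ± 410.3 and 1448 ± 203. Dnajc3 (199 ± 117 and 336 ± 85.7) and Dnajc1 (75.6 ± 28.3 and 127 ± 24.6) were the next strongest. None of the 7 passed.

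The signs of the immediate early genes, a list that tissue dissociation is known to raise, depended on shScrmbl replicate 2. Of 14 measured, 5 were above 0 and 9 below by limma (median -0.12), and 14 of 14 below by edgeR (median -0.61). Without that library 9 were above 0 and 5 below by either tool, with a median of 0.26 by limma and 0.13 by edgeR. For all genes the medians were then 0.56 and 0.19, with 71.1% and 62.0% above 0, so the list's medians were still the lower ones. Btg2 had 261 ± 197 in shScrmbl and 190 ± 49.3 in shXbp1 astrocytes, Egr1 212 ± 114 and 204 ± 110.5, Klf6 190 ± 71.7 and 148 ± 22.5, and Fos 173 ± 137 and 196 ± 56.7. The list took 0.131%, 0.212%, 0.0987% and 0.0913% of the counts in shScrmbl replicates 1 to 4 and 0.0999% to 0.150% in shXbp1 libraries, and none of its genes passed.

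**Figure D4:**
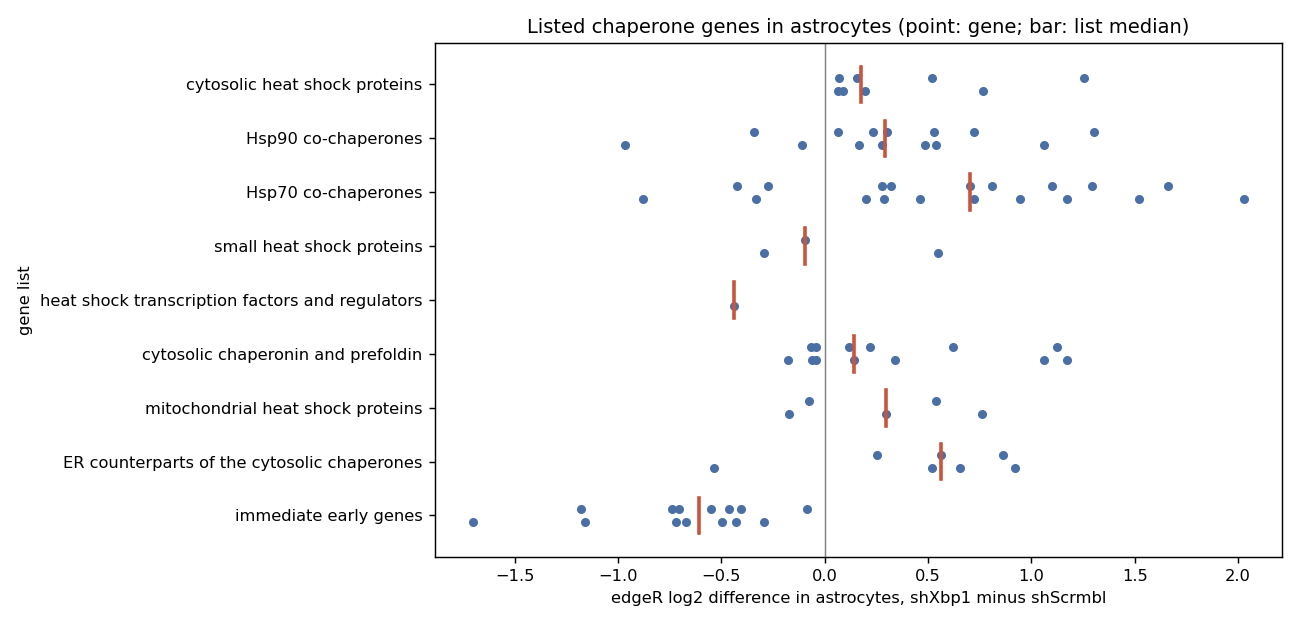
edgeR log2 difference between shXbp1 and shScrmbl astrocytes for each measured gene of the heat shock members and the related lists (points), with the list median (red bar). The 8 members lie above 0 with a median of 0.17, the Hsp70 co-chaperones have a median of 0.70, and the 14 immediate early genes lie below 0. Without shScrmbl replicate 2 these become 4 of 8 members above 0 with a median of 0.07, a median of 0.20, and 9 of 14 immediate early genes above 0. For all genes the median is then 0.19, with 62.0% above 0.

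In microglia and monocytes fewer partner genes were measured. In microglia no gene of these lists passed limma's or edgeR's test. The Hsp90 co-chaperones had 3 of 16 measured (1 above 0 and 2 below), the Hsp70 co-chaperones 7 of 21 (3 and 4), and the chaperonin list 9 of 14 (1 and 8). Among the strongest were Dnajc8, with 319 ± 116 in shScrmbl and 336 ± 106 in shXbp1 microglia (SD, n = 4 and 3), and Pfdn5, with 1358 ± 434 and 1135 ± 843. Hspa5 had 1156 ± 271 and 1639 ± 194 in groups that did not overlap, with a limma difference of 0.53. Of all microglial genes 2.32% were apart in this direction.

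In monocytes 9 of 16 Hsp90 co-chaperones were measured (5 above 0 and 4 below), 9 of 21 Hsp70 co-chaperones (1 and 8) and 11 of 14 chaperonin and prefoldin genes (7 and 4). Zfp36, an immediate early gene, passed by limma with an adjusted p of 0.00864. Like Hspa4 it was at 0 in both shXbp1 libraries, from 12 counts in the controls, and it did not pass by edgeR (adjusted p = 0.923). Of the immediate early list 16 of 20 were measured, 2 above 0 and 14 below by limma (median -0.81 against -0.42 for all genes, of which 34.2% were above 0). Fos had 586 ± 137 in shScrmbl and 216 ± 19.8 in shXbp1 monocytes, Btg2 1172 ± 313 and 542 ± 122, and Klf6 530 ± 2.03 and 378 ± 179.8 (SD, n = 2 each). Junb had the higher mean in shXbp1 (359 ± 33.3 and 453 ± 425.7), with a limma difference of -0.08 and an edgeR difference of 0.46. None of these 4 passed the test.

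Genes with a pattern like that of the members were named by correlation with the mean log2 signal of the measured members, among genes with a mean signal of at least 100. In astrocytes, over 8 libraries and 1433 genes, they were Smpd1 (r = 0.92), Srp72 (r = 0.92) and Slc12a2 (r = 0.89). The mean weights every member alike, and its own correlation was 0.74 with Dnajb1, 0.69 with Hspa1a and 0.56 with Hsp90aa1. It was only 0.15 with Hspa8 and 0.04 with Hspa4, so the mean does not stand for every member. In microglia, over 7 libraries and 1515 genes, they were Rps19 (r = 0.95), P2ry13 (r = 0.95) and Rpl15 (r = 0.94). There the mean also correlated with the log2 depth of the library (r = 0.66, against -0.13 in astrocytes), which the libraries' genes share. The named genes are the highest of many correlations over few libraries, and such values can be large by chance. Whether they exceed chance was not tested.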

How the data were processed

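RNA of 19 libraries of sorted cells was counted by 3′ digital gene expression, per the labels' protocols. The authors deposited 1 table of normalized signal for each cell type. Their tools, per the submitters' processing notes, included BWA 0.7.10 and limma 3.34.1, with the build mm10. The counter, filters and scaling are not given in the sources used here. Every deposited signal above 0 was a whole count times a library's step (100% within 0.01), and counts scaled by edgeR's TMM factors returned the deposited signal within a relative difference of 4.94e-10. The labels do not state if 1 count stands for 1 read or 1 molecule.

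Each cell type was fitted alone with limma 3.58.1 (trend, robust) on log2(signal + 1), keeping genes that reached a signal of 1 in a number of libraries equal to the smaller group's size, with Benjamini-Hochberg adjusted p under 0.05 over 6366, 3066 and 3775 genes. edgeR 4.0.16 and DESeq2 1.42.0 on recovered counts, a pseudocount of 50, no filter, a mean signal of at least 100, quantile normalization, a replicate block and leaving out each library were alternatives. The work was done in R 4.3.3 and in Python 3.11.15 (pandas 2.3.3, scipy 1.17.1, numpy 2.4.6, matplotlib 3.10.9), and the fits were tested on simulated data. Of 8-fold changes set there in genes drawn at random, limma recovered 35.5% in astrocytes, 34.8% in microglia and 27% in monocytes. edgeR recovered 72.3%, 65.5% and 50.2%, and DESeq2 61.5%, 52.5% and 35.8%. A gene that did not pass can therefore still differ. Replicates are taken from the labels as separate samples, and p-values measure the spread between them. Members and lists were chosen with earlier results of these data known. Named were all members, the 4 list genes with the highest mean signal in a table, list genes that passed, and the 3 genes most like the members. A list gene named by this rule is not reported here. Coordinates are from GENCODE on GRCm38.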

Additional observations from a re-analysis of the deposited data

Results flagged for a closer look

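Among 32 groups of 4 or more libraries whose member values and shares were checked for a single library far from the rest, 3 stood out, and chance sets apart about 1 in 20. Hspa1a in shScrmbl astrocytes was 138 in replicate 4 against 0 to 20.1 in the other libraries of its group, which is 5 counts. The same library held an Hspa1a share of 6.33% of Hsp70 counts against at most 0.833% in the others. Hspa4 in shScrmbl microglia was 126 in replicate 2, from 10 counts, against 40.0 to 51.9 in the others.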

How the results depend on the processing

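Astrocyte calls numbered 0 by limma (298 genes with unadjusted p under 0.05), 1 by edgeR (415) and 0 by DESeq2 (131). Without each library in turn limma called 0, and edgeR, an alternative chosen after seeing the data, 0 to 8 (8 without shScrmbl replicate 1 and 7 without shXbp1 replicate 2). List counts without shScrmbl replicate 2 were added in the same way. Microglia calls were 0 by limma (166 unadjusted), 12 by edgeR (168), 0 by DESeq2 (62), 1 with a pseudocount of 50 and 6 with quantile normalization, and 0 to 3 without a library (3 without shScrmbl replicate 1). Monocyte calls were 101 by limma, 1 by edgeR, and 0 by DESeq2 (21 unadjusted), with a pseudocount of 50 (210), with a mean signal of at least 100 (33) and with quantile normalization (122). Without a library they ran from 0 to 1163: 0 without either shScrmbl library, 486 without shXbp1 replicate 1 and 1163 without shXbp1 replicate 2. The cause was not tested.

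The signs of the low members were not stable, nor were those of several abundant members in microglia and monocytes. The widest ranges, of low members, come from fits against libraries at 0, where the value depends on the pseudocount. In astrocytes Hspa1a was -0.66 by DESeq2, -0.14 with a pseudocount of 50 and -0.32 with quantile normalization, and by DESeq2 Dnaja1 was -0.016 and Dnajb1 -0.079. In microglia Dnajb1 was 0.071 by edgeR, 0.11 by DESeq2 and 0.043 with a pseudocount of 50, and with quantile normalization Hspa1a was 0.21, Dnaja1 0.023, Dnajb1 0.94 and Hspa4 0.28. In monocytes Hspa1b was -0.31 by edgeR and Hspa8 -0.10 with quantile normalization. Without a library, astrocyte differences ran from -1.03 to 1.35 for Hspa1a, -0.058 to 0.14 for Dnaja1, -0.26 to 0.45 for Dnajb1 and -0.11 to 0.78 for Hspa4 by limma, and by edgeR from -0.91 to 1.81, -0.072 to 0.19, -0.32 to 0.47 and -0.093 to 0.47. Hsp90aa1 kept 0.60 to 0.98, Hsp90ab1 0.42 to 0.72 and Hsph1 0.69 to 1.41 by limma. In microglia they ran from -0.18 to 0.23 for Hsp90aa1, -0.39 to 0.0079 for Hspa8, -2.63 to 1.24 for Hspa1a, -0.27 to 0.075 for Dnaja1, -1.67 to 1.96 for Dnajb1 and -2.85 to 0.25 for Hspa4. In monocytes they ran from -0.57 to 0.87 for Hsp90aa1, -0.24 to 1.02 for Hsp90ab1, -0.26 to 0.45 for Hspa8, -0.40 to 7.12 for Hspa1a, -0.94 to 5.07 for Hspa1b, -0.24 to 2.64 for Hsph1 and -1.31 to 0.44 for Dnaja1.

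No pairing by replicate number was seen, but the check cannot exclude it at this depth. Same-numbered libraries deviated with r of -0.08 to 0.08 in astrocytes and -0.03 to 0.05 in microglia. Different-numbered libraries ran from -0.21 to 0.10 and from -0.08 to 0.04. In monocytes r was -0.19 for the same and 0.19 for crossed numbers. With 2 libraries a group these mirror each other whatever the pairing. With a replicate block limma called 0, 0 and 112 genes, and in microglia, where shScrmbl replicate 4 has no partner and drops out, the blocked differences were 0.00496 for Hspa1a, 0.075 for Dnaja1 and 0.44 for Dnajb1. The block changed no member's call. Crossing the monocyte numbers in the block, chosen after seeing the data, called 114. Depth limits the members under a signal of about 100, which rest on few counts per library.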
